A study of Homo sapiens with 8 samples.

Results

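The nuclear pore complex genes are described here by the exon and intron events and the gene abundance that could be read from the deposited splicing tables. The members were chosen by name, as the nucleoporin genes of the pore scaffold, its central channel, its membrane ring, its nuclear basket and its cytoplasmic side. Of 32 listed symbols, TMEM48 is the older symbol of NDC1, so that there were 31 genes, all of which had at least 1 event. They held 714 of 132938 events in the tables and were 31 of 12067 genes with an event. NUPL1 and NUPL2 are the symbols in the files for the genes that newer annotation calls NUP58 and NUP42. The cells were U2OS, an established line from a human osteosarcoma. They received 20 nM of an siRNA, either the control against EGFP, which is not a human gene, or CHERP#2, and were harvested 48 h later. The CHERP protein is a nuclear protein that associates with the splicing machinery. RNA was taken from whole cells or from the cytoplasm after detergent lysis, and 2 libraries of poly(A)+ RNA were sequenced for each siRNA and fraction, 8 in all. A single siRNA against CHERP was used in these libraries, so that an effect of losing CHERP and an effect of that siRNA on other transcripts cannot be told apart.

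The nuclear pore complex is the channel in the nuclear envelope through which proteins, messenger RNAs and ribosomal particles pass. Its scaffold is built from outer rings of Y-shaped complexes and from an inner ring, which hold the phenylalanine- and glycine-rich proteins of the central channel. Cytoplasmic filaments take part in the release of exported messenger RNA, the nuclear basket receives cargo on the inner side, and membrane proteins anchor the structure. Many of the scaffold proteins are long lived, and dividing cells build new pores in every cycle.

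The reads summed over all events came to 29409956 to 35664568 per whole-cell library and to 5370756 to 6580099 per cytoplasmic library. The pore genes took 0.452% to 0.513% of the whole-cell reads and 0.207% to 0.257% of the cytoplasmic reads. The effective length of the skipping form was 144 bases in the whole-cell tables and 73 bases in the cytoplasmic tables, so that the fraction and the read length cannot be told apart. In whole cells CHERP had 103 and 77 reads in the control libraries and 3 and 10 in the CHERP siRNA libraries, and its abundance fell by 3.45 ± 0.57 on the log2 scale (SE, limma, adjusted p = 0.00139). In the cytoplasm it had 31 and 21 reads against 3 and 4, below the read minimum for a test. Of 6 bone and mesenchymal markers, RUNX2 and VIM had events, and of 6 markers of other cell types CDH1 had. VIM had 57402 to 80880 reads per whole-cell library. RUNX2 had 16 and 18 whole-cell reads in the control libraries against 0 and 3, and CDH1 had 1 and 1 against 22 and 15, and the part of either change in the values below was not tested. None of 4 nuclear non-coding RNAs had an event, so that the purity of the cytoplasmic fraction was not tested here.

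Gene abundance was the sum, over the skipped exon, alternative 5′ splice site and alternative 3′ splice site events of a gene, of reads over effective length, scaled between libraries. Such values follow how many events a gene has and can be compared between libraries but not between genes. In whole cells 30 of the 31 genes averaged 20 reads or more over the libraries and were tested with limma, and 5 rose and 7 fell with CHERP siRNA at an adjusted p under 0.05. Over all genes tested 19% rose and 17.7% fell, so that the share of pore genes that changed was near that of genes in general. The median log2 difference of the pore genes was -0.015, and that of all genes was 0.016. In bulk samples fewer cells that carry a transcript and less of it per cell cannot be told apart.

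The central channel held the largest rise and the largest fall. NUPL1, which encodes a channel protein that pairs with NUP54 and NUP62, had an abundance of 2.10 and 2.19 in the EGFP siRNA libraries and of 7.18 and 7.60 in the CHERP siRNA libraries. NUP62, which encodes another protein of this channel complex, had 6.51 and 6.90 against 2.73 and 3.52. For both genes the groups were far apart and in opposite order, with a rise of 1.78 ± 0.13 for NUPL1 (log2, SE, limma, adjusted p = 1.54e-05) and a fall for NUP62 by 1.11 ± 0.15 (adjusted p = 0.000444). NUP62 overlaps IL4I1, so that reads on the exons ahead of its coding exon, which enter its abundance in both fractions, are uncertain. NUP54 had 29.8 and 33.2 against 35.7 and 33.8, and its difference of 0.15 ± 0.10 did not pass (adjusted p = 0.297). The 3 genes whose products form this complex thus did not move together at the RNA level.

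In the Y complex of the outer ring, 2 of 9 genes rose and 2 fell in whole cells. SEC13, whose product also coats vesicles that leave the endoplasmic reticulum, had an abundance of 3.65 and 3.84 with EGFP siRNA and of 10.0 and 9.56 with CHERP siRNA, a rise of 1.38 ± 0.12 on the log2 scale (adjusted p = 3.6e-05). NUP160 had 12.5 and 13.7 against 17.2 and 18.5, a smaller rise of 0.45 ± 0.11 (adjusted p = 0.00975). NUP107 went the other way, from 16.1 and 18.5 to 12.3 and 11.8, and fell by 0.52 ± 0.11 (adjusted p = 0.00571). For NUP37, a small subunit of the Y complex, the values were 8.47 and 9.60 against 6.90 and 6.79, and it fell by 0.40 ± 0.12 (adjusted p = 0.0259). The groups did not overlap for any of these genes. That was so for 24 of all 30 pore genes tested in whole cells, and the share over all genes was not counted. NUP85, AHCTF1, SEH1L, NUP133 and NUP43 did not pass, with log2 differences of -0.27, -0.32, -0.06, -0.04 and 0.02. The call for NUP37 was lost without the first CHERP library (adjusted p = 0.189) and without the second (0.215). That for NUP160 was lost in the same way (0.0622 and 0.154), that for NUP107 without the second (0.076), and all 3 when the variance was moderated without a trend (NUP37 0.0948, NUP160 0.069, NUP107 0.0545).

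Of the 5 inner ring genes 2 fell and none rose. NUP155, a membrane-binding scaffold protein, had an abundance of 26.1 and 30.8 with EGFP siRNA and of 15.8 and 15.6 with CHERP siRNA, and it fell by 0.85 ± 0.11 on the log2 scale (adjusted p = 0.000409). NUP35, which binds NUP155, went from 4.48 and 5.94 to 2.91 and 2.97 and fell by 0.81 ± 0.16 (adjusted p = 0.00333). Neither gene's groups overlapped. NUP93, NUP188 and NUP205, which form the rest of the ring, had differences of -0.17, 0.20 and 0.22 and did not pass.

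In the membrane ring NDC1, a protein that spans the envelope, had 3.36 and 3.36 in the controls and 4.43 and 5.36 with CHERP siRNA, a rise of 0.53 ± 0.14 (log2, SE, adjusted p = 0.0148) that was lost without the second CHERP library (adjusted p = 0.25) and without a trend in the variance (0.0622). AAAS, whose product is held at the pore by NDC1, had 2.92 and 2.45 against 1.65 and 1.59 and fell by 0.73 ± 0.16 (adjusted p = 0.00612). These genes therefore moved in opposite directions. POM121 and POM121C, whose sequences are nearly identical so that reads can be placed on either, had differences of 0.19 and 0.15 and did not pass. NUP210 was too low to be tested, with 6 and 6 reads against 23 and 18.

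On the nuclear side NUP50, a basket protein that helps importin alpha release its cargo, had 25 and 26.6 in the controls and 17.9 and 17.4 with CHERP siRNA and fell by 0.54 ± 0.10 (log2, SE, adjusted p = 0.00256). TPR, the main filament of the basket, and NUP153 had differences of -0.30 and 0.02 and did not pass. On the cytoplasmic side 1 of 6 genes passed. NUPL2, which takes part in messenger RNA release, had 2.95 and 3.25 against 4.87 and 5.28 and rose by 0.71 ± 0.13 (adjusted p = 0.00275). RANBP2, NUP88, NUP214, NUP98 and RAE1 had differences between -0.33 and 0.26. RANBP2 shares sequence with the RGPD gene family, so that its reads are uncertain.

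**Figure D1:**
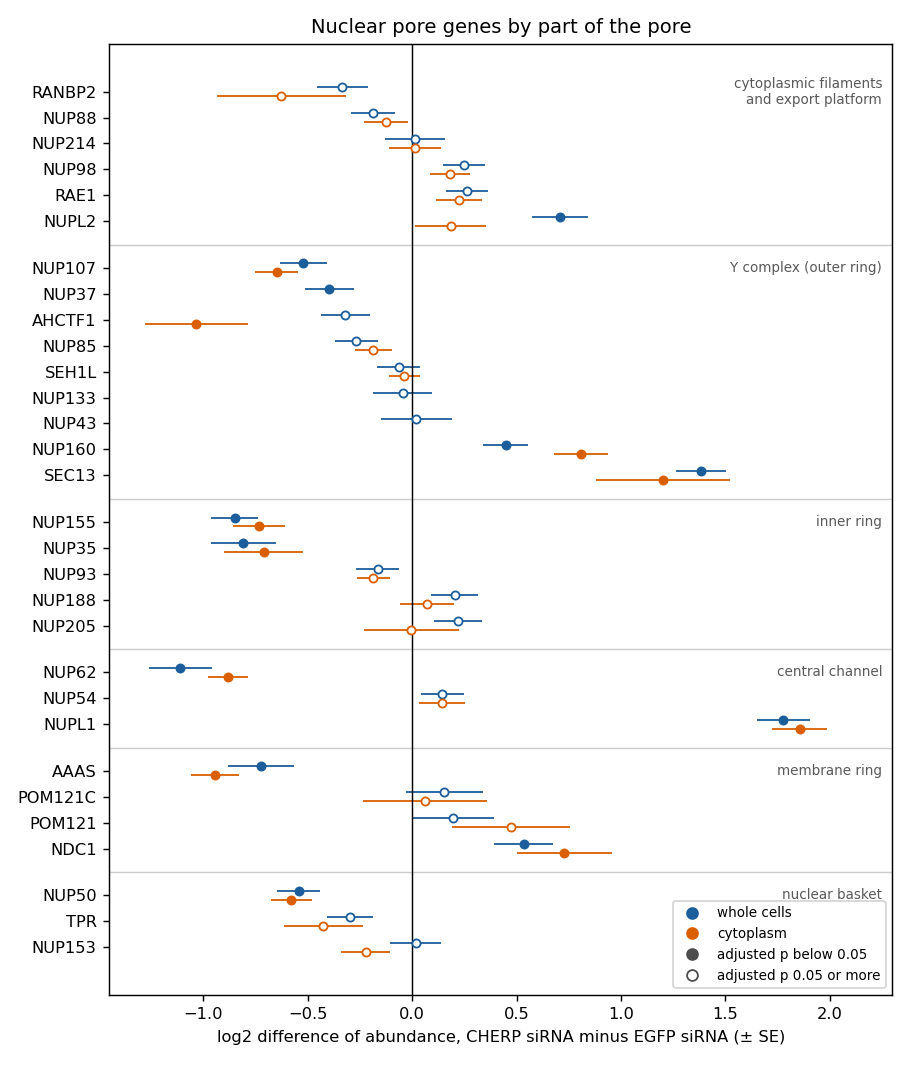
Log2 difference of abundance between CHERP and EGFP siRNA for the pore genes, grouped by part of the pore, in whole cells (blue) and in the cytoplasm (orange); bars are SE from limma, filled points have an adjusted p below 0.05, and genes without a point in a fraction were below the read minimum or had no event for the abundance there. NUPL1 (1.78 and 1.86) and SEC13 (1.38 and 1.2) lie farthest to the right, and NUP62 in whole cells (-1.11) farthest to the left.

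In the cytoplasm 27 of the genes could be tested, and 4 rose and 7 fell. Of all genes tested there, 25.8% rose and 22.5% fell. NUP37 was below the read minimum there, and NUP133, NUP43 and NUP210 had no event of the 3 types that enter the abundance. NUPL1 rose again, from 0.896 and 0.793 with EGFP siRNA to 3.24 and 2.93 with CHERP siRNA, by 1.86 ± 0.13 on the log2 scale (adjusted p = 8.28e-07). NUP160 had 1.2 and 1.43 against 2.3 and 2.31 and rose by 0.81 ± 0.13 (adjusted p = 0.00036). SEC13 had 0.182 and 0.408 against 0.719 and 0.573, where the EGFP siRNA libraries differed from each other by more than the CHERP siRNA libraries, and its rise of 1.2 ± 0.32 (adjusted p = 0.00932) became 0.64 without the first EGFP library (adjusted p = 0.0569) and did not pass without a trend in the variance (0.0706). NDC1 had 0.303 and 0.413 against 0.542 and 0.649, a rise of 0.73 ± 0.23 (adjusted p = 0.0202) that did not pass without the first EGFP library (0.128) or the second CHERP library (0.0775).

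The genes that fell in the cytoplasm were those that fell in whole cells, without NUP37 and with AHCTF1 added. AHCTF1, which encodes the protein that seeds pore assembly on chromatin, had 0.427 and 0.434 in the controls and 0.238 and 0.177 with CHERP siRNA and fell by 1.03 ± 0.25 on the log2 scale (adjusted p = 0.00515). AAAS had 2.71 and 2.81 against 1.48 and 1.38 and fell by 0.94 ± 0.11 (adjusted p = 4.98e-05). NUP62 had 6.69 and 7.73 against 3.74 and 4.08 and fell by 0.88 ± 0.10 (adjusted p = 2.35e-05). The groups of each of these genes were apart by more than the spread within them. Of all 27 pore genes tested in the cytoplasm 20 had groups that did not overlap, and the share over all genes was not counted. NUP155 went from 2.32 and 2.77 to 1.57 and 1.47, a fall by 0.73 ± 0.13 (adjusted p = 0.000613). NUP107 went from 3.23 and 3.34 to 2.09 and 2.10, a fall by 0.65 ± 0.10 (adjusted p = 0.000318). NUP50 went from 7.13 and 8.68 to 5.29 and 5.23, a fall by 0.58 ± 0.10 (adjusted p = 0.000524). NUP35, with 1.06 and 0.813 against 0.590 and 0.535, fell by 0.71 ± 0.19 (adjusted p = 0.00884), and this call was lost without the first EGFP library (0.0874). The other 16 genes tested had log2 differences between -0.63 for RANBP2 and 0.47 for POM121.

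**Figure D2:**
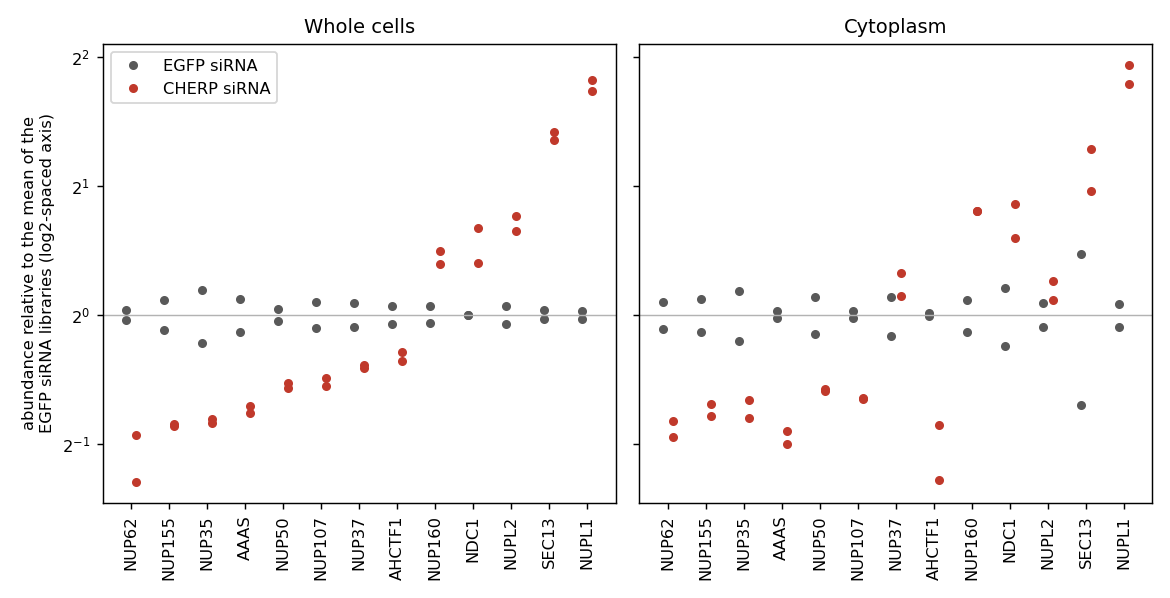
Abundance in every library of the 13 genes that passed in whole cells or in the cytoplasm, divided by the mean of the EGFP siRNA libraries of the same fraction (axis spaced on a log2 scale); grey points are EGFP siRNA libraries and red points CHERP siRNA libraries. In whole cells the red points of NUP62 to AHCTF1 lie below the grey points and those of NUP160 to NUPL1 above them.

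The whole-cell and cytoplasmic libraries were separate. Whether the fractions came from the same cultures is not stated in the labels or the study's methods, so that their differences may not be independent. Of 27 genes tested in both fractions, 25 had the same direction in both, and 6 fell and 4 rose past the test in both. Pearson's r of the log2 differences across these genes was 0.939, a description across genes, which are not independent replicates and share their 2 libraries per group. Of all genes tested with limma, 36.7% passed in whole cells and 48.3% in the cytoplasm. The agreement between fractions was not counted over all genes, so that it is not shown to be particular to the pore genes. NUPL2 passed in whole cells alone, with 0.690 and 0.788 against 0.799 and 0.884 in the cytoplasm, and AHCTF1 in the cytoplasm alone. The interaction of siRNA and fraction was tested on events present in both fractions. None of 26 pore genes passed (limma, 2 with an unadjusted p under 0.05), as was the case for 0% of 6505 genes. For AHCTF1 the cytoplasmic difference was lower than the whole-cell difference by a log2 interaction of -0.70 ± 0.24 (SE, unadjusted p = 0.0145, adjusted p = 0.999), and for NUPL2 by -0.49 ± 0.20 (unadjusted p = 0.031, adjusted p = 0.999), so that a difference between the fractions was not shown for either.

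**Figure D3:**
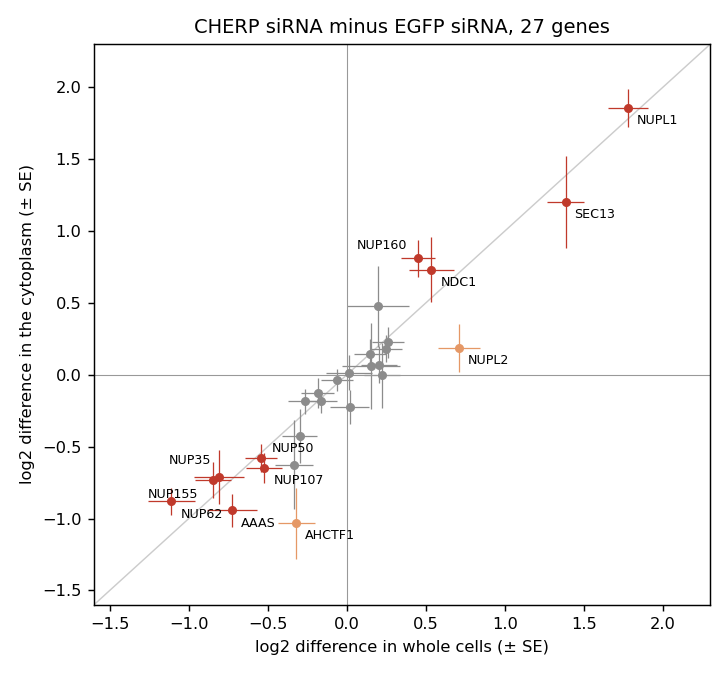
Log2 difference between CHERP and EGFP siRNA in whole cells (x axis) and in the cytoplasm (y axis) for the 27 pore genes tested in both, with SE bars; red genes passed in both fractions, orange genes in 1 of them, grey genes in neither, and the diagonal marks equal differences. The 10 red genes lie near the diagonal, and AHCTF1 (-0.32 and -1.03) and NUPL2 (0.71 and 0.19) lie below it.

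A separate table of the authors gives mean normalized counts of the cytoplasmic libraries for the genes past the authors' threshold, without values per library. These means are of the same libraries and are not independent evidence. The table lists 6757 genes in all, 3934 with the higher mean with CHERP siRNA and 2823 with the lower. It lists 18 of the 31 pore genes, 9 with the higher mean with CHERP siRNA and 9 with the lower. Among them are all 11 that passed on event reads in the cytoplasm. For NUPL1 the authors' mean was 456 with EGFP siRNA and 1720 with CHERP siRNA, and for SEC13 it was 1124 and 3064. NUP160 had authors' means of 1338 and 2066, and NDC1 of 439 and 711. Among the lower genes NUP62 had 4296 with EGFP siRNA and 2824 with CHERP siRNA, NUP155 had 2553 and 1562, and AAAS had 1652 and 1037. NUP35 had 496 and 285, NUP107 had 1300 and 892, NUP50 had 3742 and 2787, and AHCTF1 had 1236 and 960. The 7 that the table lists and event reads did not call were RANBP2 (2480 and 1625), TPR (1705 and 1350), NUP188 (2798 and 3224), NUP98 (3464 and 4153), POM121 (2096 and 2785), RAE1 (2436 and 3247) and NUPL2 (296 and 424), and the direction of all 18 was that of the event reads. Over all genes neither the share of called genes that the table lists nor the agreement in direction was counted. Neither is therefore shown to be particular to the pore genes. Sizes could differ. For AHCTF1 the log2 difference was -0.36 by the authors' means and -1.03 by event reads, which were 74 and 75 with EGFP siRNA against 38 and 28.

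Splicing was tested event by event, as the reads on the inclusion form against those on the skipping form. Levels run from 0 to 1 and give the inclusion form's part of the reads on both forms of an event, corrected for the effective length of each form. A level depends on the junction that an exon is paired with, so that it is not a share of all transcripts of the gene. The pore genes had 387 skipped exon events in whole cells, on 277 exons. Of these events 322 concerned an exon of the canonical transcript, with a median level of 0.994 with EGFP siRNA, and 65 concerned another exon, with a median level of 0.118. With CHERP siRNA 11 events passed, or 2.84%, 4 with a higher and 7 with a lower level, against 1.45% of all skipped exon events. These 11 events belong to 7 exons of 4 genes, NUP50, NUP62, NUP54 and NUPL1, and events of the same gene share skipping reads, so that they are not separate results. In the cytoplasm 4 of 140 skipped exon events passed, or 2.86%, against 0.702% of all, on 2 exons of NUP50 and NUPL1. None of the whole-cell events of the other types passed the quasi-binomial test. These were 109 mutually exclusive exon events (1.67% of all such events passed), 10 alternative 5′ splice sites (1.32%), 17 alternative 3′ splice sites (1.28%) and 12 retained introns (3.26%), of which 4, 1, 2 and 3 had an unadjusted p under 0.05. In the cytoplasm 0 of 19 (0.911% of all), 0 of 3 (0.793%), 0 of 15 (0.543%) and 0 of 2 (2.71%) passed, with 3, 2, 3 and 0 at an unadjusted p under 0.05. In 106 of the 109 whole-cell pairs listed as mutually exclusive the canonical transcript holds both exons, so that their level compares the coverage of these exons. limma on log2 odds, which gives weight to each event's own spread, called 0 pore events in either fraction and 1 event of all genes in whole cells. The quasi-binomial calls were made with a dispersion shared by events of a type, and what made the 2 tests differ was not tested.

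In NUP50 a cassette exon of 190 nt at chr22:45566869-45567058 (hg19, plus strand) was included less often with CHERP siRNA. The exon is absent from the canonical transcript of 8 exons. It is annotated in 4 transcripts in this length, 2 of them labelled as targets of nonsense-mediated decay and 1 as coding, in which it is untranslated. Read in the frame of the canonical protein, a stop codon begins at base 22 of the exon. The splice sites of the exon are shown because 3 of its forms, which share the acceptor and end at different donors, all passed. Bases of the exon are in capitals and bases of the intron in lower case, and the donor windows are named by the length of the exon that ends there.
NUP50 acceptor, chr22:45566849-45566877: attttattccgaccctacagGGTAAAAGA
NUP50 donor of the 156-nt form, chr22:45567022-45567034: TGGgcaagttggg
NUP50 donor of the 165-nt form, chr22:45567031-45567043: TGGgcaggactca
NUP50 donor of the 190-nt form, chr22:45567056-45567068: TGTgtatgttata

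The 190-nt form had 158 and 171 inclusion reads in the whole-cell EGFP siRNA libraries, against 39 and 34 in the CHERP siRNA libraries. The skipping reads were 98 and 91 against 80 and 88. Its level was 0.410 and 0.448 against 0.174 and 0.143, a difference of -0.27 (quasi-binomial test, adjusted p = 5.64e-07). Inclusion reads fell while skipping reads stayed near their level, and the groups did not overlap. In the cytoplasm the level was 0.374 and 0.256 against 0.0661 and 0.0847, a difference of -0.24 (adjusted p = 2.52e-06). The whole-cell call held without each library in turn, with differences from -0.289 to -0.252, and the cytoplasmic call was lost without the first CHERP library (adjusted p = 0.814) and without the second (0.76). The forms of 165 and 156 nt fell from means of 0.281 and 0.248 to 0.0890 and 0.0843 in whole cells. Their calls were less firm: without the second CHERP library neither passed (adjusted p = 0.349 and 0.563), and without the first the 156-nt form did not (0.0895). Both shorter donors begin with the bases gc, and the longest begins with gt.

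In NUP62, whose coding sequence lies in the last exon, 2 exons ahead of it had events with a lower level in whole cells. Of 5 events of the first exon 2 passed and 1 had a difference above 0, and of 4 events of the second 2 passed and all had a difference below 0. Both are untranslated in the annotation, and their sequences are therefore not shown. The exon at chr19:50430951-50431105 (minus strand, 155 nt, or 122 nt with another acceptor) had a level of 0.789 and 0.675 with EGFP siRNA and of 0.406 and 0.338 with CHERP siRNA, a difference of -0.36 (quasi-binomial test, adjusted p = 3.35e-05). The exon at chr19:50414362-50414627 (266 nt), absent from the canonical transcript, had 0.441 and 0.279 against 0.0270 and 0.0929, a difference of -0.30 (adjusted p = 0.00016). The groups did not overlap in either case. The skipping reads of the first exon were 20 and 39 against 38 and 48 and are the same reads that count as skipping of the second, so that both events rest on a shared form. The call was lost for the 155-nt exon without the second CHERP library (adjusted p = 0.134) and for the 266-nt exon without the first (0.175). In the cytoplasm the levels were 0.645 and 0.640 against 0.390 and 0.466 for the first exon (adjusted p = 0.164) and 0.145 and 0.0347 against 0 and 0.0118 for the second (adjusted p = 0.0522), and neither passed. NUP62 overlaps IL4I1 at this locus, so that reads on these exons are uncertain.

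In NUP54 the reads that skip a run of coding exons were fewer with CHERP siRNA. The canonical transcript has 12 exons, and the skipping form joined exon 1 to exon 9 and so left out exons 2 to 8, which are 989 nt together, or 2 more than a multiple of 3. The joined form and the exons that passed are shown, with exon bases in capitals and 20 bases of each flanking intron in lower case. In the joined form the bases of exon 9 are in capitals and those of exon 1 in lower case.
NUP54 exon 1 joined to exon 9, ends at chr4:77069475 and chr4:77045895, minus strand: ccgcggcccccgcggATCATATCTGAAGAT
NUP54 exon 5, chr4:77055308-77055535, minus strand: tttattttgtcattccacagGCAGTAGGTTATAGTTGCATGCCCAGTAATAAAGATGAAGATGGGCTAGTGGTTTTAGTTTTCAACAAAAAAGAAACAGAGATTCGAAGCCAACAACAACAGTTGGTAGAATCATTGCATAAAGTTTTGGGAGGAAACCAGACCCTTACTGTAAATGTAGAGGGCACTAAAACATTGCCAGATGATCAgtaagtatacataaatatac
NUP54 exon 6, chr4:77053656-77053892, minus strand: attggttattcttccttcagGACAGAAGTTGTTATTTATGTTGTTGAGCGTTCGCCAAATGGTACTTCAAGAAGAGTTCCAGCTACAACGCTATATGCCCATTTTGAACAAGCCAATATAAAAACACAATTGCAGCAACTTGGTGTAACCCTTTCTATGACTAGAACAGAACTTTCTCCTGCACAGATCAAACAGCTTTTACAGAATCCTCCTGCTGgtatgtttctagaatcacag
NUP54 exon 8, chr4:77051789-77051922, minus strand: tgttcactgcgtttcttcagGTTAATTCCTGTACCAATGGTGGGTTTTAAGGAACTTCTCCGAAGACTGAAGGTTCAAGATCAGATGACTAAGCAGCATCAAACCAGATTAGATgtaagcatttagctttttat

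The junction of exon 1 with exon 9 had 39 and 41 reads in the control libraries and 12 and 18 after CHERP siRNA. Against it, exon 8 had 156 and 194 inclusion reads in the controls and 260 and 203 after CHERP siRNA, with levels of 0.708 and 0.741 against 0.929 and 0.872, a difference of 0.18 (quasi-binomial test, adjusted p = 0.00408). Exon 6, set against the same junction, had levels of 0.467 and 0.529 against 0.798 and 0.728 (adjusted p = 0.0242). Exon 5 was set against a junction of exon 3 with exon 9, with 14 and 23 against 3 and 10 skipping reads, and had levels of 0.456 and 0.430 against 0.898 and 0.735 (adjusted p = 0.0330). In all 3 cases the levels rose and the groups did not overlap. The call for exon 8 was lost without the first CHERP library (adjusted p = 0.852), and those for exons 5 and 6 were lost without any 1 of the 4 libraries. The tables pair these exons with other junctions too, and of 7, 7 and 6 whole-cell events of exons 8, 6 and 5 only 1 each passed, with 2, 1 and 1 of the differences below 0. The called events were not listed in the cytoplasm. There exon 2, against the junction of exon 1 with exon 9, had levels of 0.781 and 0.736 against 0.921 and 1.00 and did not pass (adjusted p = 0.646).

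In NUPL1 small coding exons passed, exon 7 in whole cells and exon 3 in the cytoplasm. Both had a higher level and few skipping reads. The exon 7 event was not listed in the cytoplasm, so that it could not pass there. Of 2 whole-cell events of exon 7, 1 passed and the other had a difference of -0.01. Exon 3 of 16 is 36 nt long, a multiple of 3, and exon 7 is 25 nt long, so that skipping exon 7 shifts the frame. The exons are shown in capitals with 20 bases of each flanking intron in lower case.
NUPL1 exon 3, chr13:25883365-25883440, plus strand: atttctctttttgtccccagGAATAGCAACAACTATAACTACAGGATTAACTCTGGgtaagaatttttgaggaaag
NUPL1 exon 7, chr13:25893444-25893508, plus strand: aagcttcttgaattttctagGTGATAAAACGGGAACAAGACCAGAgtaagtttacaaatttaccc

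Exon 7 had 3 and 16 skipping reads in the whole-cell EGFP siRNA libraries and 6 and 1 in the CHERP siRNA libraries. The inclusion reads were 38 and 48 against 232 and 217. Its level was 0.915 and 0.719 against 0.970 and 0.995 (difference 0.17, quasi-binomial test, adjusted p = 0.00176). The low level came from the second EGFP library, and without it the difference was 0.0674 and did not pass (adjusted p = 0.87), nor did it without the second CHERP library (0.212). In the cytoplasm exon 3 had a level of 0.572 and 0.744 with EGFP siRNA, from 4 and 3 skipping reads, and of 0.985 and 0.974 with CHERP siRNA, from 1 and 1 (difference 0.32, adjusted p = 0.0275). Leaving out any 1 library lost that call, with adjusted p from 0.276 to 0.84. In whole cells exon 3 had 0.839 and 0.949 against 0.968 and 0.989 (adjusted p = 0.707). Its interaction of siRNA and fraction did not pass (quasi-binomial test, adjusted p = 0.895), so that a difference between the fractions was not shown.

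**Figure D4:**
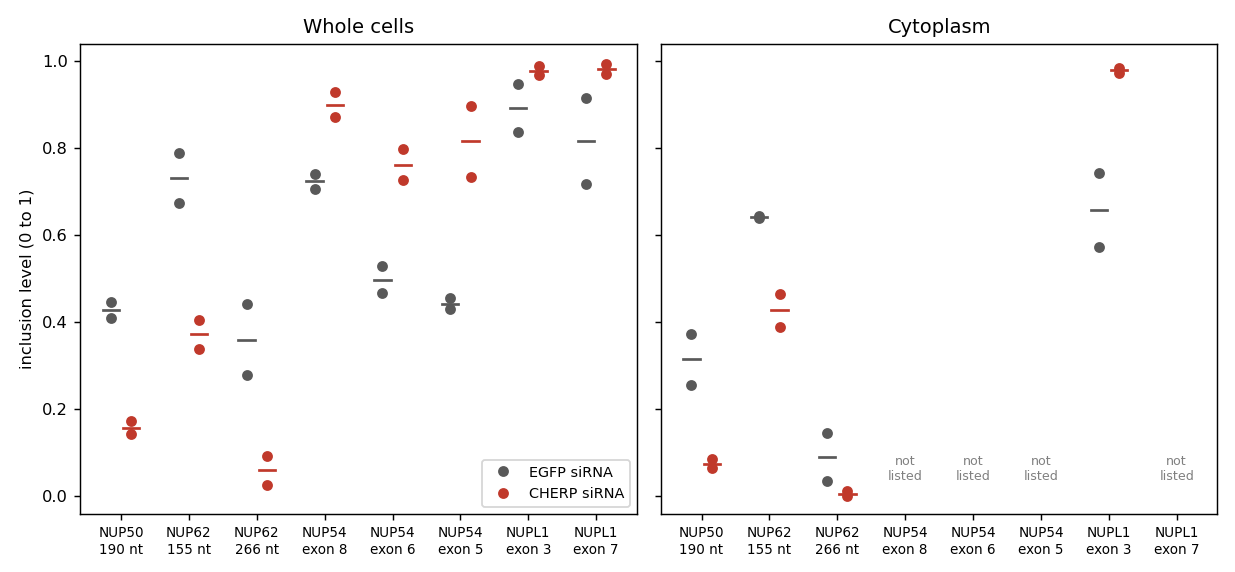
Inclusion level, from 0 to 1, in every library of the exons of pore genes that passed in whole cells or the cytoplasm, with grey points for EGFP siRNA, red points for CHERP siRNA and a line at the mean of the 2 libraries; events that the cytoplasmic tables do not hold in the same form are marked as not listed. The level of the NUP50 exon with CHERP siRNA lay at or below 0.174 in both fractions, and all 4 EGFP siRNA values lay at or above 0.256.

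Other pore events with large differences, at least 20 reads on average and groups that did not overlap are given as values, since they did not pass. In the cytoplasm the longer form of the 155-nt NUP62 exon, set against its 122-nt form, had levels of 0.517 and 0.656 with EGFP siRNA and of 0.341 and 0.277 with CHERP siRNA (adjusted p = 0.49). For a NUP88 pair of exons that the tables list as mutually exclusive, the levels were 0.257 and 0.360 against 0.577 and 0.438 (adjusted p = 0.346). In whole cells exon 5 of NUP54, set against a junction of exon 2 with exon 9, had 0.413 and 0.464 against 0.732 and 0.759 (adjusted p = 0.167).

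Retained introns did not change past the test in any pore gene. The 3 with the most reads lay in NUP54, NUP85 and NUP88. Intron 17 of NUP85, of 311 nt at chr17:73230884-73231194, had a level of 0.132 and 0.110 with EGFP siRNA and of 0.126 and 0.115 with CHERP siRNA in whole cells (adjusted p = 0.994). Intron 10 of NUP54, of 300 nt at chr4:77038928-77039227, had 0.0189 and 0.0463 against 0.0176 and 0.0262 (adjusted p = 0.667). For intron 13 of NUP88, of 138 nt at chr17:5290787-5290924, the levels were 0 and 0.0362 against 0.00665 and 0.0111 (adjusted p = 0.697). Over the 12 whole-cell introns 5 differences were above 0 and 7 below, from -0.188 to 0.199, and the smallest unadjusted p was 0.0119.

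The EGFP siRNA libraries were also compared between the fractions, with the effective lengths of each table in the fit. Of 154 pore events listed in both fractions 12 passed, or 7.79%, against 6.62% of all 33604 events. Of these 12, 7 were pairs listed as mutually exclusive, and in 6 of the 7 the canonical transcript holds both exons, so that their level compares the coverage of neighbouring exons. The remaining 5 were the NUP85 intron and 4 events of the 266-nt NUP62 exon and its shorter forms. The NUP85 intron had levels of 0.132 and 0.110 in whole cells and of 0.0280 and 0.00942 in the cytoplasm, and the groups did not overlap. Its ends are shown because it is the pore intron that passed, with exon bases in capitals.
NUP85 intron 17 donor, chr17:73230874-73230903, plus strand: ACAGAAACAGgtgaaggttgcagcagcagt
NUP85 intron 17 acceptor, chr17:73231175-73231204, plus strand: aggcaggctctcttccctagGTGATTTTCT

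The 266-nt NUP62 exon had levels of 0.441 and 0.279 in whole cells and of 0.145 and 0.0347 in the cytoplasm with EGFP siRNA. A fit without the second cytoplasmic EGFP library called 4 pore events in place of 12. No pore event passed the interaction of siRNA and fraction (quasi-binomial test, 5 of 154 with an unadjusted p under 0.05), and 0.0119% of all events did.

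The carriers that move cargo through the pore were taken as a list of 33 genes, namely importins, exportins, the Ran cycle that gives transport its direction and the helicase step of messenger RNA release. In whole cells 10 of 32 tested rose and 7 fell, or 31.2% and 21.9%, against 19% and 17.7% of all genes. In the cytoplasm 11 of 29 rose and 11 fell, or 37.9% each, against 25.8% and 22.5% of all genes. RANBP3, a cofactor of the exportin XPO1, had an abundance of 4.6 and 3.85 with EGFP siRNA and of 8.16 and 8.19 with CHERP siRNA in whole cells (log2 difference 0.96, adjusted p = 0.000482). The importin alpha gene KPNA1 had 6.52 and 7.03 against 12.9 and 12.6 in whole cells (0.92, adjusted p = 0.00025) and 1.16 and 1.38 against 2.5 and 2.29 in the cytoplasm (0.91, adjusted p = 0.000172). The transfer RNA exportin XPOT had 2.91 and 3.60 against 4.99 and 5.94 in the cytoplasm (0.75, adjusted p = 0.000375). On the falling side stood TNPO3, an importin of splicing factors, with 6.76 and 7.12 against 3.53 and 3.39 in whole cells (-1, adjusted p = 0.000265) and 1.98 and 1.82 against 0.995 and 0.906 in the cytoplasm (-0.99, adjusted p = 0.000118). KPNA5, another importin alpha gene, had 0.868 and 0.891 against 0.515 and 0.498 in whole cells (-0.79, adjusted p = 0.0158) and 0.268 and 0.328 against 0.137 and 0.127 in the cytoplasm (-1.12, adjusted p = 0.00565). The list, like the pore genes, moved in both directions. It was drawn up with earlier results of these data known, so that its shares are a description. The genes named here have the largest called changes in each direction and fraction, so that groups that did not overlap are partly a result of that choice.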

How the data were processed

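RNA-seq was measured in 8 libraries of U2OS cells in 4 groups of 2, named by the labels as whole-cell or cytoplasmic RNA after EGFP or CHERP#2 siRNA. Per the labels and the study's methods, the authors made stranded poly(A)+ libraries, mapped them to hg19 with STAR 2.5.2b and ran rMATS, whose version is not given in the sources used here. The deposited tables hold the authors' reads on the inclusion and skipping form of each event, without normalization, as 2 libraries joined in a cell with no replicate number, so that libraries are named first and second in the order of the cell. The study's methods describe the 2 libraries of a group as biological replicates. The deposited gene table holds a signal that is the authors' mean of normalized counts from RSEM 1.2.25 and EBSeq, and its columns name no siRNA. They were assigned because the number of genes higher in the first, 3934, is the number of transcripts that the study's text calls increased. Columns of the authors' own tests (fold changes, p-values, inclusion level differences) and 20 columns of inclusion levels were not used.

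Members and gene lists were chosen with earlier results of these data known. Events were tested with a quasi-binomial model whose dispersion was moderated by squeezeVar of limma 3.58.1 (R 4.3.3) with a trend on reads. The prior degrees of freedom were infinite in all 10 tables, so that an event's own spread had no weight. Benjamini-Hochberg adjustment was made within each event type at 0.05. The fraction fit added the log ratio of effective lengths, and the interaction fit did not. Gene abundance (skipped exon, alternative 5′ and 3′ splice site events, reads over effective length, median-ratio scaling) was tested by limma on log2(value + 0.01) over genes averaging 20 reads or more over the libraries, which understates changes of low genes. The unit of the reads does not allow count models of genes, so none was run. Both tests were checked on simulated data, drawn with the same dispersion for every event and the same for every gene. That check cannot show how the calls fare where events or genes differ in spread. Named genes are those past the test in either fraction, the called events, the 3 largest non-overlapping differences in each direction and fraction among events averaging 20 reads or more, the 3 retained introns with most reads and CHERP. Of the transport genes those with the 2 largest called changes in each direction and fraction are named. Exons were read from GENCODE 44 lifted to GRCh37 (the build also named hg19), and sequences from that genome with pysam 0.24.0; the authors used GENCODE 19. With 2 against 2 libraries an exact permutation test cannot go below p = 0.333, so none was used.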

Additional observations from a re-analysis of the deposited data

How the results depend on the processing

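The events are less stable than the abundances. With limma on log2 odds 0 pore events passed in whole cells and 0 in the cytoplasm, and 5 differed between the fractions, against 11, 4 and 12. Fits without each library in turn called, new calls included, 4 to 10 whole-cell events (4 without the first and 4 without the second CHERP library), 0 to 5 cytoplasmic events (1 without the first EGFP library and 0 without either CHERP library) and 4 to 10 fraction events (4 without the second cytoplasmic EGFP library). Minimum reads, a dispersion without trend and a dispersion from events with 10 reads of the rarer form kept these counts within 1.5 times. Over all scalings, filters, pseudocounts and left-out libraries 8 to 18 pore genes passed in whole cells and 8 to 12 in the cytoplasm, with 8 in whole cells when the variance was moderated without a trend. In whole cells genes were also called without the first EGFP library (TPR, NUP93, NUP88, NUP85, RANBP2 and AHCTF1, lower), without the second (NUP85 lower, RAE1, NUP98 and NUP54 higher), with upper quartile scaling (TPR, NUP85, RANBP2 and AHCTF1, lower) and with skipped exon events alone (TPR, NUP85 and AHCTF1, lower). No gene or event named for its call changed direction. Interaction counts were 0 under every alternative run. Leaving out the events that passed, an alternative chosen after seeing the data, gave 12 and 11 genes. No paired analysis was possible because the cells of the tables carry no replicate numbers. An alternative that leaves 1 library in a group assumes that it varies like the others. Depth in the cytoplasm left NUP37 untested, and 2 libraries per group limit every estimate of spread.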

Other observations

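In the cytoplasm NUP37 had 15 and 18 reads in the control libraries against 20 and 19, below the minimum for a test, and its abundance there was 0.2 and 0.247 against 0.248 and 0.281. In whole cells the same gene fell past the test, but that call was lost without either CHERP library and without a trend in the variance. NUP37 was not among the genes tested for the interaction of siRNA and fraction, so that a difference between the fractions was not tested.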
